A study of Mus musculus with 21 samples.

Results

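The 8 apolipoprotein genes Apoa1, Apoa2, Apoa4, Apoa5, Apob, Apoc3, Apoe and Apoh were followed across DNase-seq peak lists from 18 mouse livers. DNase-seq releases fragments from nuclei with a light DNase I cut, so that open chromatin appears as peaks of reads. Sites were all peaks that overlapped a gene body of the GENCODE vM1 annotation (mouse build mm9) or lay within 10 kb of one, and they numbered 52 of the 68362 regions obtained by merging the peaks of all livers. Each liver came from 1 untreated male CD-1 mouse, an outbred stock, aged 8 to 10 weeks. The class STAT5_High comprised 8 livers in which an electrophoretic mobility shift assay of STAT5 DNA binding was high at killing, and STAT5_Low comprised 10 in which it was low. The submitters set 3 further livers apart as outliers whose profile resembled the opposite class. They are not analysed here, so the classes compared were selected in part on the kind of measurement compared. The series asks how natural pulses of plasma growth hormone, acting through STAT5, alter chromatin accessibility in male liver.

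Apolipoproteins are the protein components of the particles that carry lipids in blood, and hepatocytes secrete most of them. Apoa1 and Apoa2 encode the main proteins of high-density lipoprotein, and Apoa4 a lipoprotein protein made in intestine and, in the mouse, in liver. Apoc3 slows and Apoa5 promotes the lipolysis of triglyceride-rich particles. Apob encodes the structural protein of very-low-density and low-density lipoprotein, Apoe the ligand by which remnants are cleared through lipoprotein receptors, and Apoh a phospholipid-binding plasma glycoprotein. Growth hormone reaches the male rodent liver in pulses, and its receptor activates STAT5, which binds the motif TTCNNNGAA.

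Apoa1, Apoc3, Apoa4 and Apoa5 form a cluster on chromosome 9, so that their windows share sites, whereas Apoa2 (chromosome 1), Apob (chromosome 12), Apoe (chromosome 7) and Apoh (chromosome 11) stand alone among the 8. The windows held 8 sites for Apoa1, 9 for Apoc3, 7 for Apoa4, 5 for Apoa5, 7 for Apoa2, 10 for Apob, 7 for Apoe and 12 for Apoh. Promoters, defined as within 1 kb of an annotated start, contained 21 of the 52 sites, 16 were intergenic, 10 intronic, 3 in untranslated exons and 2 in coding exons. Other genes' promoters are among the 21, since the windows reach Nr1i3, Tomm40l and Fcer1g beside Apoa2, Apoc1 beside Apoe, Zfp259 beside Apoa5 and Prkca beside Apoh. Distances below run from the gene's start to the summit of a site.

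The sequences of 4 sites are shown because the class differences described below fall at them or, for Apoa2, at the start of the gene beside them. They are the mm9 reference on the plus strand, and the promoters of Apoh and Apoa2 are 250 bases that end at the base before the start, matched from RefSeq's promoter table (GRCm38.p6) to mm9. Capitals mark TGTTTAC, a motif of the FOXA factors that open chromatin in hepatocytes. Both strands were searched.
Apoh promoter, chr11:108256361-108256610: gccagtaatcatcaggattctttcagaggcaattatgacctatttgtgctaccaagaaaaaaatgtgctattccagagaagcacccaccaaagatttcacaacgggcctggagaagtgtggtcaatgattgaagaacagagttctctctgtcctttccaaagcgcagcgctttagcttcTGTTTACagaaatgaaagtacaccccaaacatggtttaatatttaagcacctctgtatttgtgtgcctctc
Apoa2 promoter, chr1:173154935-173155184: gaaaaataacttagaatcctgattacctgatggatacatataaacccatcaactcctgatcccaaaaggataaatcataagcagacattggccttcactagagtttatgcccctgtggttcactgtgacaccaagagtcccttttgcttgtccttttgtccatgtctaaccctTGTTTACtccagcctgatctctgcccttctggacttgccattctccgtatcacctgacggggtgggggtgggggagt
Apob downstream site, chr12:8027840-8028039: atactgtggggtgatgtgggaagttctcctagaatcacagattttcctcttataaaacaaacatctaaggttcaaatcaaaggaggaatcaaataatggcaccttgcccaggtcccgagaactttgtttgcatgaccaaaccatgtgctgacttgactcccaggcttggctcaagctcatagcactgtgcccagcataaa
Apoe upstream site, chr7:20286353-20286552: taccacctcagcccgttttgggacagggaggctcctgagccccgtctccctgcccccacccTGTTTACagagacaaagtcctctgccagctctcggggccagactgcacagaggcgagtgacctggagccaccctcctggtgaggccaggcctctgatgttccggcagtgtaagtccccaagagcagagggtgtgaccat
The FOXA match began at base 180 of the Apoh stretch, at base 174 of the Apoa2 stretch and at base 62 of the Apoe stretch, and the Apob stretch had none. TGTTTAC occurred in 7 of the 52 sites (13.5%) and in 11.6% of all regions. TTCNNNGAA occurred in 8 sites (15.4%), against 20.3% of all regions. The 8 were 1.92 kb upstream of Apoe (TTCCAGGAA), at the Apoc3 promoter (TTCACAGAA), 3.22 kb upstream of Apoa1 (TTCCCAGAA), at the Fcer1g promoter downstream of Apoa2 (TTCTAAGAA), 17.01 kb upstream of Apoh (TTCTATGAA), 1.45 kb upstream of Apob (TTCTGAGAA), 0.951 kb downstream of the Apob start (TTCGTGGAA) and 6.48 kb downstream of the Apoe start (TTCTAGGAA). The HNF4 letters CAAAGTCCA were in 2 sites, the promoter of Apob and an Apob intron (3.85%, against 2.61% of regions). The C/EBP letters TTGCNNAA were in 12 (23.1%, against 29.0%), and the HNF1 motif in 1, inside the Apoh gene body (1.92%, against 2.20%).

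Libraries held 13815438 to 17504539 tags in STAT5_High and 12890880 to 23395665 in STAT5_Low, and heights are therefore given as normalised pileup, the authors' summit pileup per 1000000 tags of the list's header. By the prefixes in their titles the livers fell into 3 sets: G74A with 2 STAT5_High and 5 STAT5_Low livers, G92 with 3 and 2, and G99 with 3 and 3. The labels do not say what the prefixes stand for, and the sets are called collections here by assumption. STAT5_High replicate 4, of G92, stood apart, with 18673 peaks and a median normalised pileup of 1.67 over the 11748 regions open in every liver, against 2.78 to 4.56 in the other livers. The promoters of 10 of 10 hepatocyte marker genes had a peak in every liver, those of 5 macrophage genes in none, and those of 5 endothelial, 5 stellate, 5 cholangiocyte and 4 lymphocyte genes in at most 2 of a list in any liver. Stellate promoters numbered 0 to 1 in STAT5_High and 1 to 2 in STAT5_Low livers, with Lrat, Des and Pdgfrb at 0 throughout, and their part in the results was not tested. In whole liver, fewer cells with an open site and less opening per cell cannot be told apart.

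Open chromatin at the apolipoprotein genes was broadly shared. Of the 52 sites, 13 (25%) had a peak in all 18 livers, against 17.2% of all regions, and the median site was open in 15 livers, against 8. Another 17 sites had a peak in 14 to 17 livers, and all 17 lacked one in STAT5_High replicate 4, in 10 cases in that liver alone. Those 10 included the promoters of Apoa2 and Apoa5. A further 6 sites were open in 5 to 13 livers, 7 in 2 to 4, and 9 in 1 (17.3%, against 21.6% of all regions). A STAT5_High liver had 30.5 ± 5.98 of the sites (SD, n = 8) and a STAT5_Low liver 34.3 ± 2.63 (SD, n = 10). These means were 58.7% and 66.0% of the sites, beside 46.3% and 52.8% of all regions, which were also fewer in STAT5_High. The difference in sites was within the spread, and replicate 4, with 17 sites, widened it: without that liver STAT5_High had 32.4 ± 2.64 (SD, n = 7). The map of heights shows these absences as grey cells.

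**Figure D1:**
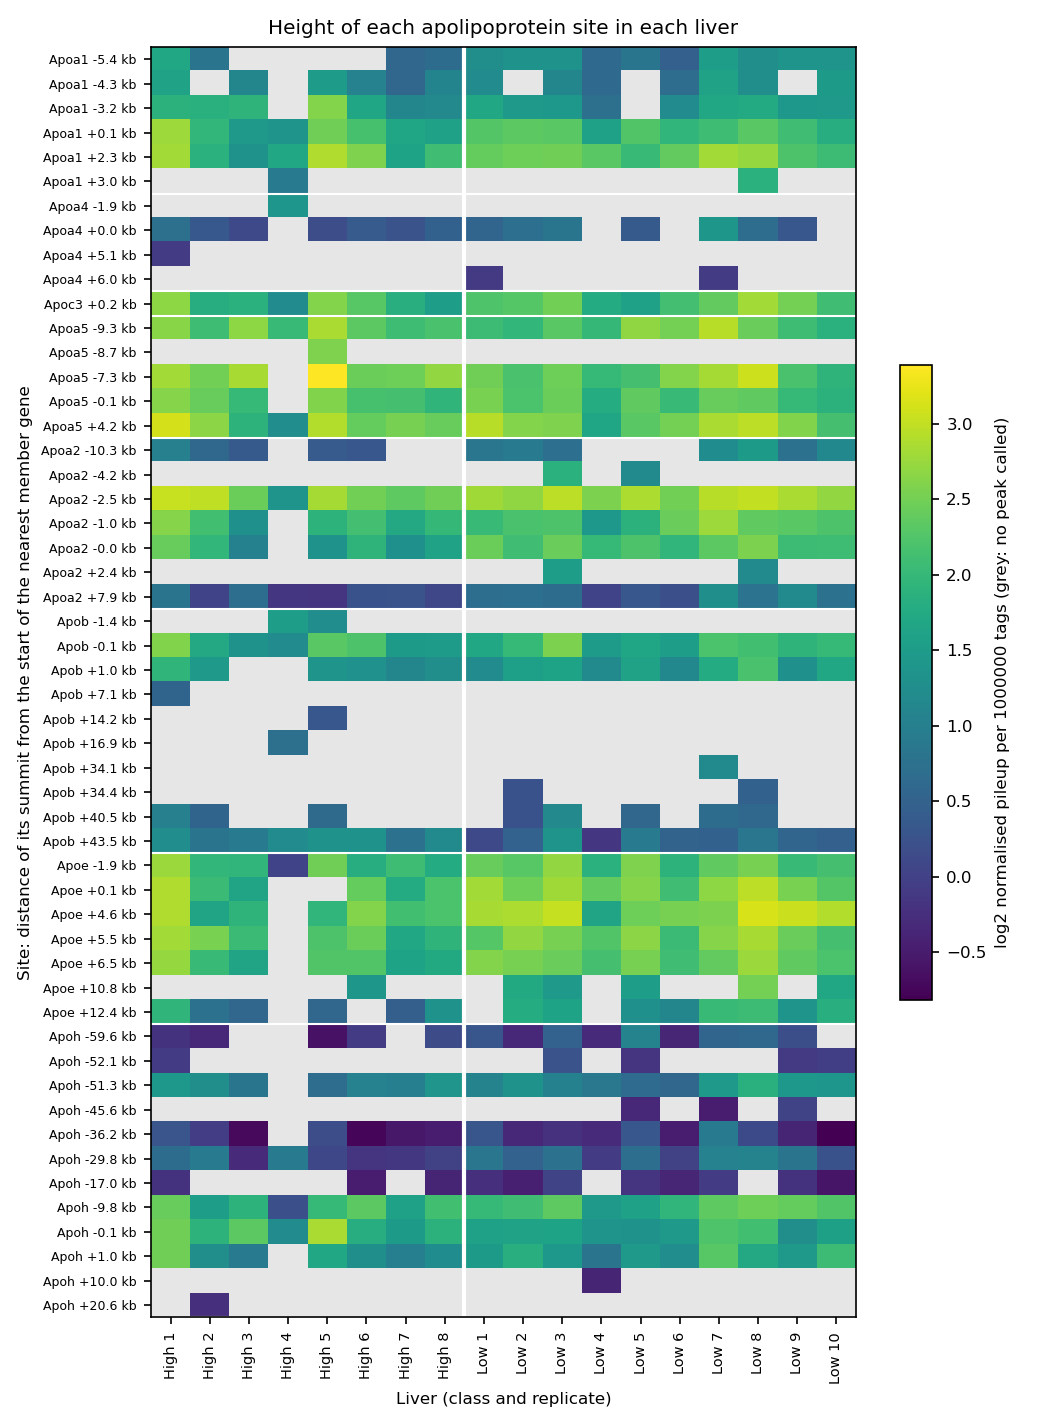
Height of the 52 sites (rows, named by nearest gene and distance in kb) in the 18 livers (columns), as log2 normalised pileup, with grey where no peak was called. Rows filled across all columns are the 13 sites shared by every liver, and the column of STAT5_High replicate 4 has 17 filled cells.

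No site passed the test of presence. Among the regions open in 5 to 13 livers, 0.979% were called towards STAT5_High and 0.134% towards STAT5_Low, and of the 6 apolipoprotein sites tested 0 were called in either direction (two-sided Fisher's exact test, Benjamini-Hochberg over 15631 regions). At an unadjusted p under 0.05 the count was also 0. For most of the 6 this outcome was fixed in advance. In a region open in 6 or 12 livers the smallest possible Fisher's exact p is 0.00151, which adjusted to 0.0657. With 5 or 13 open livers the smallest possible p is larger. The sites 52.1 kb upstream of Apoh, 10.8 kb downstream of the Apoe start, 4.29 kb upstream of Apoa1 and at Nr1i3 could therefore not be called. Among the 6, the smallest adjusted p was 0.484, shared by a site 17.01 kb upstream of the Apoh mRNA start and the Apoe site at 10.8 kb. Sites were more often open in STAT5_Low in 28 cases and in STAT5_High in 11, the direction that also prevailed among all regions (39250 and 17047).

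Apoa1, the core protein gene of high-density lipoprotein, was open at its start and past its 3′ end in every liver. The promoter site (chromosome 9, 46036525 to 46037026) had a normalised pileup of 2.57 to 6.88 (median 3.53) in STAT5_High and 3.03 to 5.04 (median 4.53) in STAT5_Low. The site 2.35 kb downstream (46037926 to 46039517), which runs from the last coding exon into the interval towards Apoc3, had 2.52 to 7.40 (median 3.99) and 4.04 to 7.02 (median 5.24). The classes overlapped at both sites, and the height differences, STAT5_High minus STAT5_Low after subtraction of each liver's median, were −0.06 and −0.15 on the log2 scale (limma, adjusted p = 0.844 and 0.611). A site 5.41 kb upstream, in an untranslated exon of Sik3 (46030948 to 46031627), was open in 4 of 8 STAT5_High livers at 1.49 to 3.26 (median 1.67) and in 10 of 10 STAT5_Low livers at 1.38 to 2.89 (median 2.46). Being open in 14 livers, it lay outside the range tested. Without that filter its Fisher's exact p was 0.0229, the smallest of the 52, and the adjusted p 0.712. The STAT5_High livers without a peak there were replicates 3, 4, 5 and 6.

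**Figure D2:**
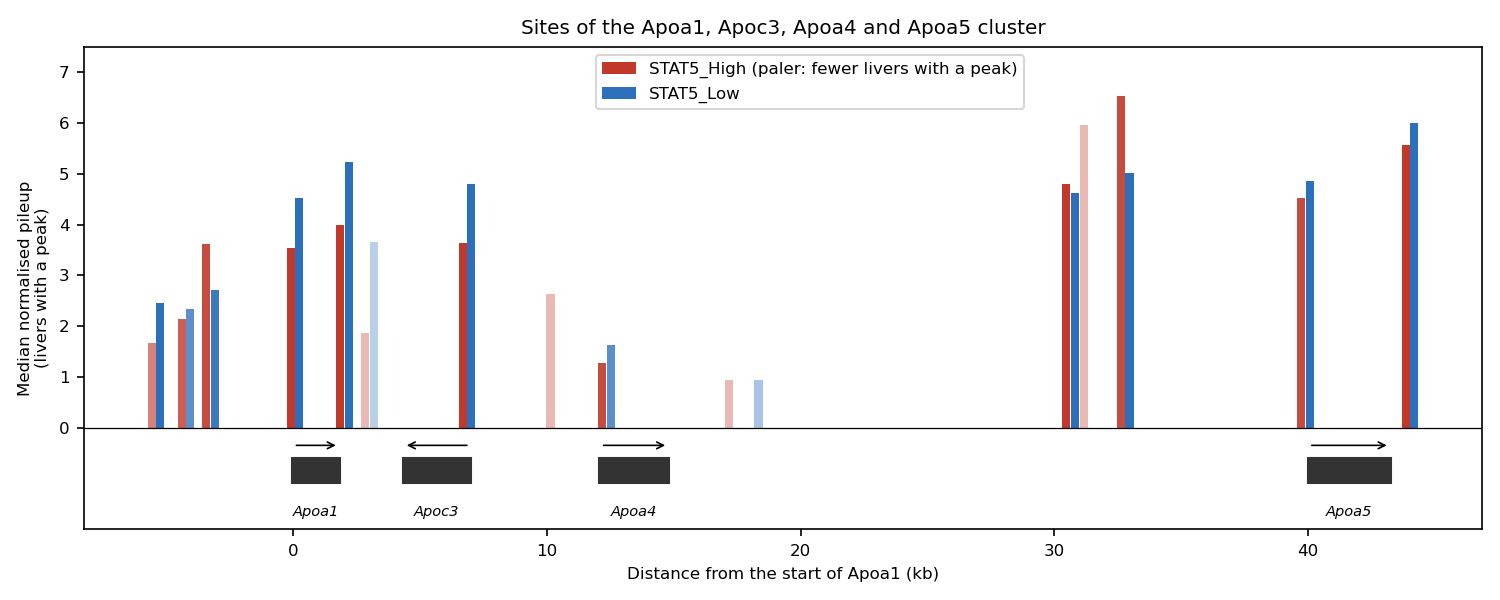
Median normalised pileup of the sites of the chromosome 9 cluster (bars, red STAT5_High and blue STAT5_Low, paler where fewer livers had a peak) against distance from the Apoa1 start in kb, with the gene bodies and their directions underneath. The paired full-colour bars at the starts of Apoa1 and Apoc3 are sites of all 18 livers, with medians of 3.53 and 4.53 at Apoa1.

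Apoc3 was likewise open at its start (46043156 to 46043953) in all livers, at 2.31 to 6.37 (median 3.64) in STAT5_High and 3.02 to 7.01 (median 4.80) in STAT5_Low. The ranges overlapped, with a log2 height difference of −0.14 (limma, adjusted p = 0.600). The Apoa4 promoter (46048661 to 46049452) was much lower and was open in 7 of 8 livers at 1.09 to 1.66 (median 1.27) and in 7 of 10 at 1.26 to 2.65 (median 1.62). A weak intergenic site 5.98 kb downstream of the Apoa4 start was called in 0 of 8 and 2 of 10 livers, at 0.931 and 0.943. Apoa5 was open at its start and on either side of it. Its promoter (46076233 to 46077024) was open in 7 of 8 STAT5_High livers at 3.83 to 6.15 (median 4.52) and in 10 of 10 STAT5_Low livers at 3.46 to 5.82 (median 4.86). An upstream pair, 9.31 kb and 7.26 kb before the start, had class medians of 4.80 and 4.62, and of 6.54 and 5.02. At the 7.26 kb site the ranges overlapped (5.47 to 10.5 and 3.775 to 8.37), and STAT5_High replicate 4 had no peak. Its log2 difference was 0.37 (SE 0.157, limma, adjusted p = 0.194) in a fit over regions open in at least 6 STAT5_High and 8 STAT5_Low livers. The 9.31 kb site, open in all livers, differed by 0.19 on the log2 scale (limma, adjusted p = 0.556). The site 4.16 kb past the start, at the Zfp259 promoter, differed by −0.01 (limma, adjusted p = 0.981). A peak 8.68 kb upstream was called in STAT5_High replicate 5 alone, at 5.97.

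Apoa2 was open at its start and at 3 neighbouring promoters, those of Nr1i3, Tomm40l and Fcer1g. The STAT5_Low medians, without subtraction of each liver's median, were the higher at each. That direction prevailed in the series. In the lists of pooled reads, normalised pileup was lower in STAT5_High at 70.8% of all regions open in every liver. The Apoa2 promoter (chromosome 1, 173154881 to 173155415) had a peak in 7 of 8 STAT5_High livers at 2.04 to 5.36 (median 3.06) and in 10 of 10 STAT5_Low livers at 3.87 to 5.91 (median 4.47). The ranges overlapped, with 5 STAT5_High values below the lowest of STAT5_Low. Because STAT5_High replicate 4 had no peak there, the promoter entered only the fit over regions open in at least 6 STAT5_High and 8 STAT5_Low livers, without a value for that liver. In that fit it was lower in STAT5_High by a log2 difference of −0.55 (SE 0.142, limma, adjusted p = 0.0153, n = 7 and 10). Another Apoa2 promoter site, 1.01 kb upstream (173153940 to 173154510) and open in the same livers, was not called. Its medians were 3.95 in STAT5_High and 4.64 in STAT5_Low, with overlapping ranges. The log2 difference there was −0.20 in the same fit (SE 0.149, limma, adjusted p = 0.5005). Its median fold enrichments were 4.29 and 3.48, the opposite direction. Of the 23338 regions in this fit, 5.45% were called higher and 0.896% lower in STAT5_High, and of its 27 apolipoprotein sites 1 and 2. The other lower site was 12.4 kb downstream of the Apoe start, beyond Apoc1, open in 6 of 8 livers at 1.37 to 3.84 (median 1.59) and in 8 of 10 at 2.16 to 4.19 (median 3.27), with a log2 difference of −0.65 (SE 0.184, adjusted p = 0.0329). Fits of this kind take a value only from livers with a peak, so a liver in which the site was too low to be called did not count. Both lower calls rest on this fit alone, which was not repeated with collection, without subtraction or with livers left out.

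The tallest Apoa2 site lay 2.52 kb upstream at the promoter of Tomm40l (173152391 to 173153087), a gene of a mitochondrial import channel. Its normalised pileup was 2.57 to 8.18 (median 5.62) in STAT5_High and 5.64 to 8.06 (median 7.09) in STAT5_Low. The classes overlapped and the log2 difference was −0.18 (limma, adjusted p = 0.300). The Fcer1g promoter, 7.88 kb downstream, belongs to an immune receptor subunit gene and was low, at 0.896 to 1.74 (median 1.12) and 1.03 to 2.42 (median 1.64), with a log2 difference of −0.33 (adjusted p = 0.307). The promoter of Nr1i3, a nuclear receptor gene of drug metabolism, lay 10.3 kb upstream (173144450 to 173145300) and was open in 5 of 8 livers at 1.25 to 2.03 (median 1.31) and in 7 of 10 at 1.66 to 2.77 (median 1.87), with overlapping ranges. A peak in the Tomm40l coding region, 4.20 kb upstream, was called in 0 of 8 and 2 of 10 livers, at 2.27 and 3.66.

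Apob was open at its start in all livers and had 1 site that was higher in STAT5_High. The promoter (chromosome 12, 7984039 to 7984887) had a normalised pileup of 2.31 to 6.08 (median 3.07) in STAT5_High and 2.86 to 5.89 (median 3.90) in STAT5_Low, with overlapping ranges and a log2 difference of −0.01 (SE 0.134, limma, adjusted p = 0.978). The intergenic site 43.46 kb from the start (8027586 to 8028149) begins 3945 bp past the annotated 3′ end. Its normalised pileup was 1.71 to 2.56 (median 2.30) in STAT5_High and 0.898 to 2.58 (median 1.43) in STAT5_Low. All 8 STAT5_High livers lay above the STAT5_Low median and 7 of 10 STAT5_Low livers lay below every STAT5_High liver. The log2 difference was 0.66 (SE 0.191, limma, adjusted p = 0.0294), and it was 0.22 within G74A, 0.97 within G92 and 0.69 within G99. The call was lost with collection in the fit (adjusted p = 0.0511), and with any 1 of STAT5_High replicates 4 and 6 and STAT5_Low replicates 1, 4 and 7 left out (0.0515 to 0.0589). Measured by the authors' fold enrichment the adjusted p was 0.242. A peak 1.45 kb upstream of Apob was called in 2 of 8 STAT5_High livers, at 2.39 and 2.89, and in 0 of 10 STAT5_Low livers.

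A promoter site at the Apoh mRNA start, called the Apoh promoter here, was the other site higher in STAT5_High. GENCODE vM1 starts Apoh 51.9 kb before the RefSeq mRNA start, beside the promoter of the kinase gene Prkca, and the RefSeq start, which carries the site, is used here. The promoter site (chromosome 11, 108256018 to 108256932) had a normalised pileup of 2.31 to 7.22 (median 3.73) in STAT5_High and 2.41 to 4.72 (median 3.01) in STAT5_Low. The ranges overlapped, with 6 of 8 STAT5_High livers above the STAT5_Low median and STAT5_High replicate 4 below every STAT5_Low liver. The log2 difference was 0.49 (SE 0.138, limma, adjusted p = 0.0233), and it was 0.42, 0.62 and 0.28 within G74A, G92 and G99. Without STAT5_High replicate 3 or 5 the adjusted p was 0.0668 or 0.0674, and in the fit over regions open in at least 6 and 8 livers it was 0.0635. Together these 2 sites made 2 of 13 apolipoprotein sites called higher in STAT5_High and 0 lower, where 7.35% and 1.23% of the 11748 regions open in every liver were called higher and lower. Without subtraction of each liver's median neither was called (adjusted p = 0.462 at Apoh and 0.162 at Apob). The plot of height and local background shows both.

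**Figure D3:**
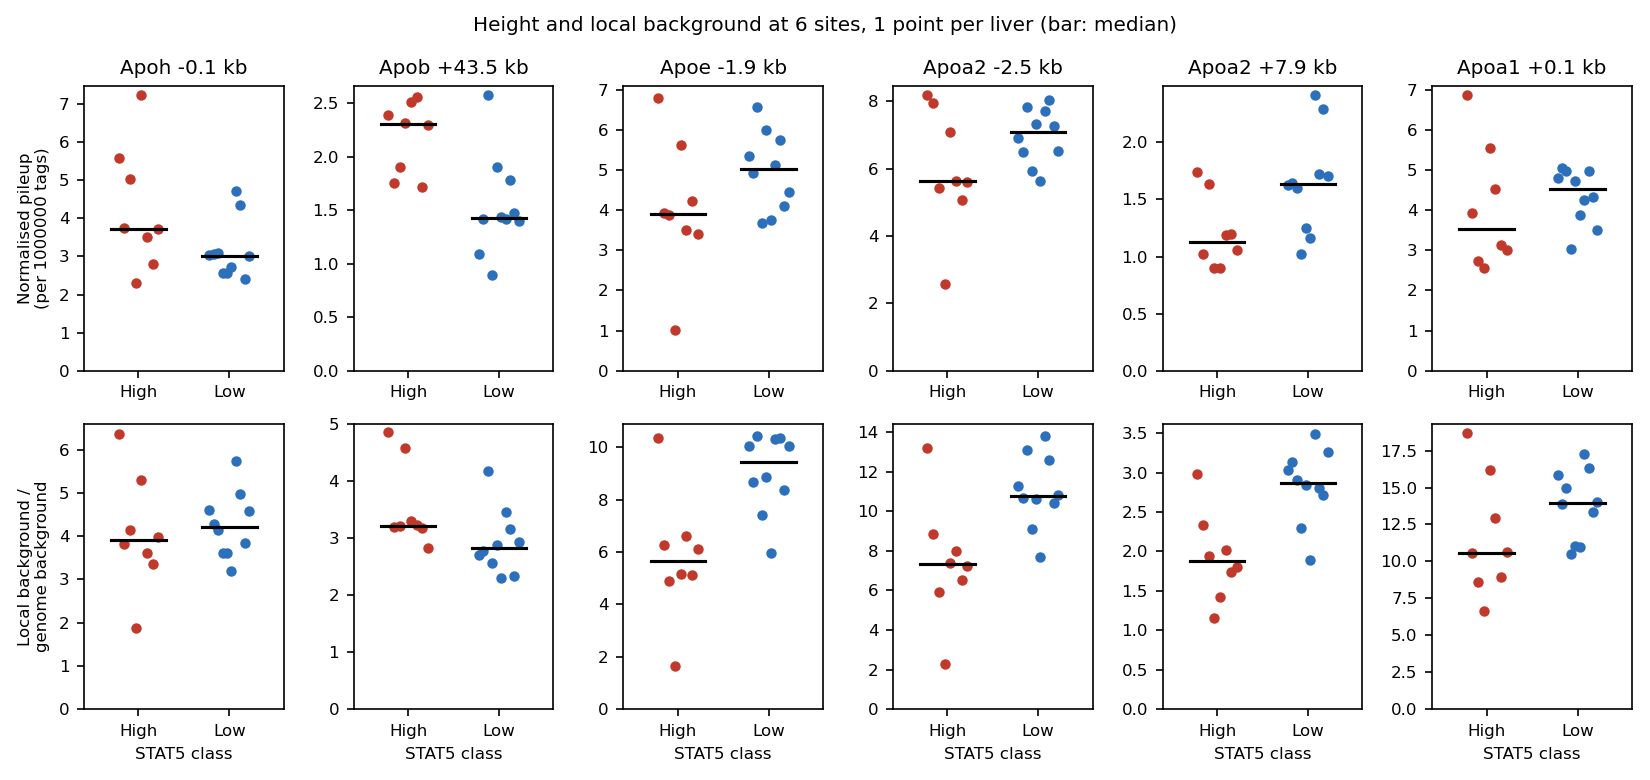
Normalised pileup (upper row) and local background over the genome background (lower row) at 6 sites, with 1 point per liver for STAT5_High (red) and STAT5_Low (blue) and a bar at the median. The Apob site at 43.46 kb has medians of 2.30 and 1.43 in the upper row, and the Apoe site at 1.9 kb has 5.65 and 9.45 in the lower row.

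The remaining Apoh sites did not differ past the threshold. The tallest, 9.80 kb upstream of the mRNA start (108246297 to 108247266), had 1.16 to 5.36 (median 3.87) in STAT5_High and 2.74 to 5.55 (median 4.53) in STAT5_Low, with a log2 difference of −0.21 (limma, adjusted p = 0.402). Another promoter site, 1.03 kb past the mRNA start (108257158 to 108258062), was open in 7 of 8 STAT5_High and 10 of 10 STAT5_Low livers. Its medians were 2.41 and 2.77, the opposite direction to the site at the start. In the fit over regions open in at least 6 and 8 livers its log2 difference was −0.15 (limma, adjusted p = 0.675). The site 17.01 kb upstream, with the STAT5 letters, was open in 3 of 8 livers at 0.714 to 0.869 (median 0.766) and in 8 of 10 at 0.672 to 1.03 (median 0.864; Fisher's exact p = 0.145, adjusted p = 0.484). A site 52.1 kb upstream, at the GENCODE start, was open in 1 of 8 livers at 0.941 and in 4 of 10 at 0.882 to 1.20 (adjusted p = 0.673). Absence of a peak at such weak sites means only that none was called at this depth.

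Apoe, whose product is the receptor ligand of remnant particles, had 7 sites in its window, which reaches Apoc1 on one side and Tomm40 on the other. The promoter (chromosome 7, 20284178 to 20284708; the gene is on the minus strand) was open in 6 of 8 STAT5_High livers at 3.13 to 7.46 (median 4.38) and in 10 of 10 STAT5_Low livers at 4.32 to 7.9 (median 6.01). The tallest site, 4.61 kb past the start and beyond the 3′ end (20279637 to 20280651), was open in 7 of 8 at 3.14 to 7.46 (median 4.34) and in 10 of 10 at 3.12 to 8.79 (median 7.26). Ranges overlapped at both, and in the fit over regions open in at least 6 and 8 livers the log2 differences were −0.37 and −0.49 (limma, adjusted p = 0.147 and 0.0922). The site 10.8 kb past the start was open in 1 of 8 livers at 2.68 and in 5 of 10 at 2.75 to 5.70 (median 3.26; Fisher's exact p = 0.152, adjusted p = 0.484). The site 1.92 kb upstream, which overlaps an untranslated exon of Tomm40 (20285742 to 20286737), was the only one of the 7 open in all livers, at 1.03 to 6.80 (median 3.90) and 3.68 to 6.58 (median 5.03), with a log2 difference of −0.31 (SE 0.150, adjusted p = 0.236).

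Many of the 13 apolipoprotein sites open in every liver had a high local background and, for their height, a low fold enrichment. The authors' fold enrichment is the pileup plus 1 over the local background plus 1, and the local background, estimated by MACS2 from up to 10000 bp around a peak with the peak included, was recovered from it. Over the 13 sites open in every liver the median normalised pileup was 4.28, against 3.49 over all 11748 such regions, while the median fold enrichment was 5.03, against 8.94. The local background was 7.89 times the genome background (site medians from 1.42 to 13.7), against 3.21 times over all such regions. At the Apoa1 promoter it was 13.2 times, higher than at 99.3% of regions, and the fold enrichment of 3.09 was lower than at all but 0.119% of regions. The background was in its highest 10% at 7 of the 13 sites, and the fold enrichment in its lowest 10% at 9. The 7 lay in the chromosome 9 cluster, beside Apoa2 and beside Apoe, and no Apob or Apoh site was among them. Neighbouring sites of the cluster can share background, so the 7 are not independent. The Apoh site 9.80 kb upstream, by contrast, had 11.4-fold enrichment over a background of 2.77 times the genome value.

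**Figure D4:**
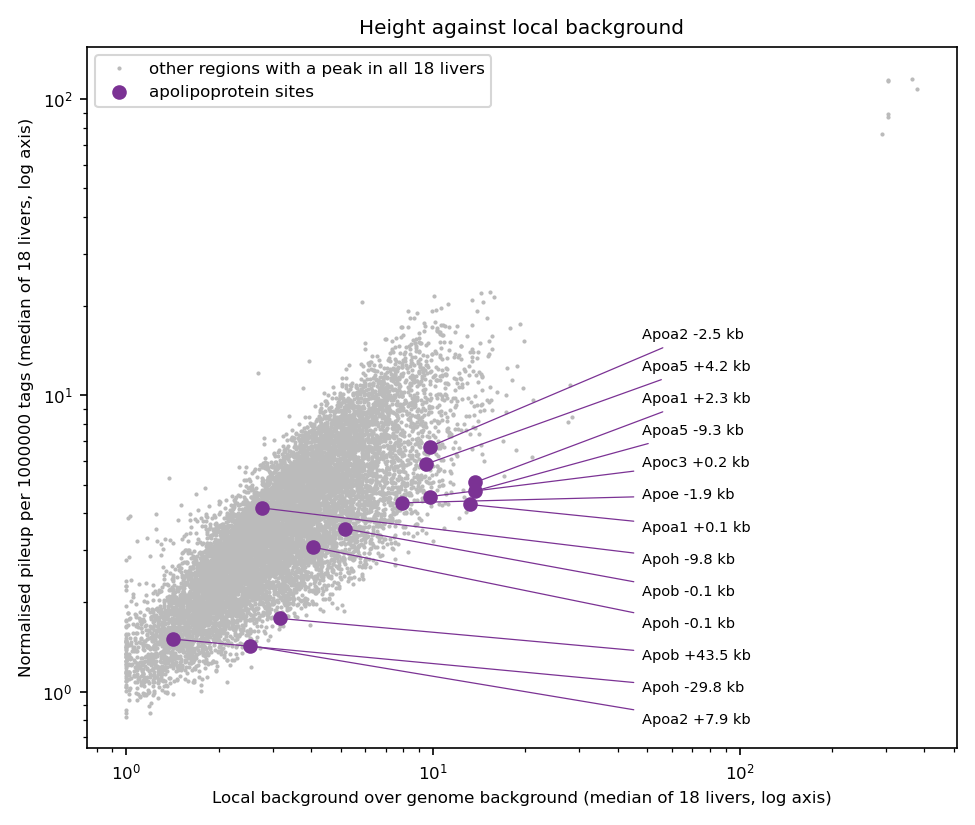
Normalised pileup against local background over the genome background, both medians of 18 livers on log axes, for the 11748 regions open in every liver (grey) and the 13 apolipoprotein sites among them (purple). Of the 13 sites, 7 are in the highest 10% of background, with 13.2 times at the Apoa1 promoter. The lowest is the Apoh site 29.8 kb upstream, at 1.42 times.

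This local background differed between the classes beside Apoe and Apoa2. At the Apoe upstream site it was 1.63 to 10.4 times the genome background (median 5.65) in STAT5_High and 5.96 to 10.4 times (median 9.45) in STAT5_Low. All 10 STAT5_Low livers lay above the STAT5_High median, and 7 of 8 STAT5_High livers lay below the STAT5_Low median. The log2 difference, after subtraction of each liver's median background, was −0.61 (SE 0.134, limma, adjusted p = 0.00331). Within G74A, G92 and G99 it was −0.31, −0.89 and −0.47. The Apoe site 4.61 kb past the start, not fitted because STAT5_High replicate 4 lacked the peak, had medians of 11.04 times in STAT5_High and 17.95 times in STAT5_Low. The Apoe site 12.4 kb past the start, also not fitted, had 4.59 and 8.37 times, with median fold enrichments of 3.36 and 3.40.

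At Apoa2 the Tomm40l promoter site had a background of 2.27 to 13.2 times (median 7.31) in STAT5_High and 7.69 to 13.8 times (median 10.7) in STAT5_Low, a log2 difference of −0.52 (SE 0.123, limma, adjusted p = 0.0055). The Fcer1g promoter site had 1.15 to 2.98 times (median 1.88) and 1.89 to 3.49 times (median 2.87), a difference of −0.43 (SE 0.0948, adjusted p = 0.00321). In each case 10 of 10 STAT5_Low livers lay above the STAT5_High median, although the ranges overlapped. Within G74A, G92 and G99 the differences were −0.16, −0.86 and −0.42 at Tomm40l and −0.25, −0.52 and −0.44 at Fcer1g. These 3 of 13 sites were called lower in STAT5_High and 0 higher, against 3.75% and 8.2% of all regions, and they represent 2 loci. Without STAT5_High replicate 1, 765 of all regions were called lower in background in place of 441. Each call held with any 1 liver left out, including STAT5_High replicate 4. Without subtraction of the liver's median the adjusted p at Tomm40l was 0.0661. The background moved in the opposite direction at the Apob downstream site, by 0.44 (SE 0.149, adjusted p = 0.0600), and differed by 0.03 at the Apoh promoter (adjusted p = 0.851). The Apoa2 promoter was not fitted because STAT5_High replicate 4 lacked the peak. Its background medians were 7.56 times in STAT5_High and 11.5 times in STAT5_Low, and its median fold enrichments were 3.51 and 3.70.

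**Figure D5:**
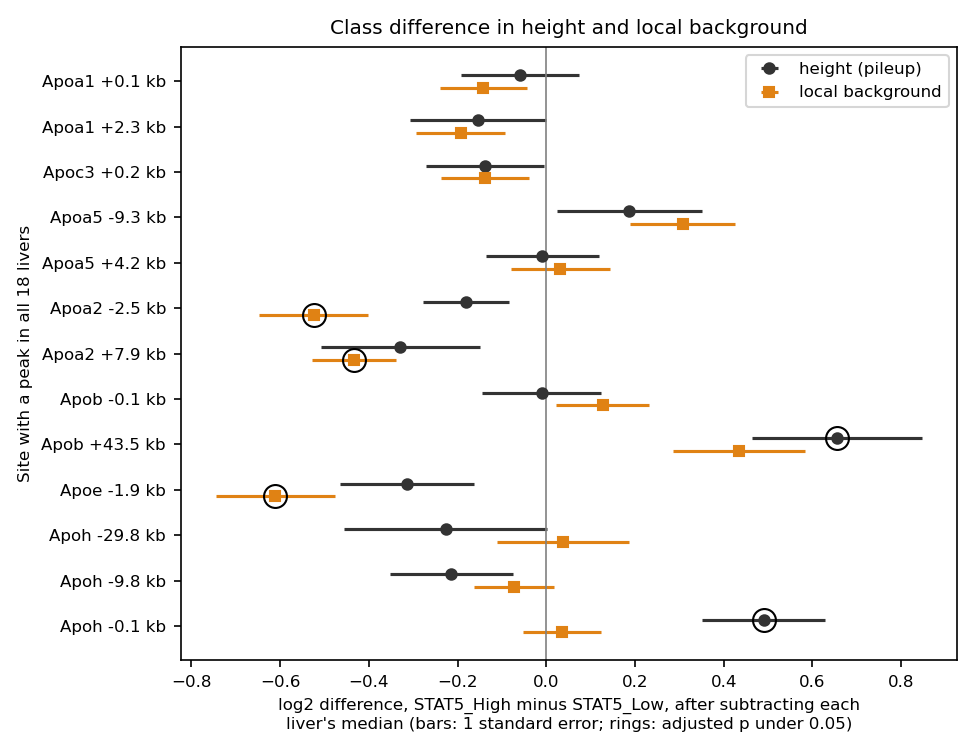
Log2 difference of STAT5_High minus STAT5_Low in height (circles) and in local background (squares) at the 13 sites open in every liver, with bars of 1 standard error and rings where the adjusted p was under 0.05. Height is ringed at Apoh (0.49) and Apob (0.66), and background at Apoe (−0.61) and at both Apoa2 sites (−0.52 and −0.43).

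Over the 13 sites the median log2 height difference was −0.14, with 10 below 0, beside −0.06 and 60.6% below 0 over all 11748 regions. The subtraction of each liver's median matters to these signs, since without it the median over all regions moves by −0.11.

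The combined lists, 1 for the pooled reads of each class with no replicates, had greater depth (128701824 and 184748725 tags). A pooled peak that overlapped several sites was counted at each, as at the Apob sites 34.1 kb and 34.4 kb past the start. A peak was called at 45 of the 52 sites in STAT5_High and at 48 in STAT5_Low, with 44 in both. Normalised pileup was lower in STAT5_High at 32 of the 44, with a median ratio of 0.854, while fold enrichment was lower at 21. Over the 13 sites open in every liver the median ratio was 0.873 and 10 were lower, beside 0.915 and 70.8% over all such regions. The Apob downstream site had a normalised pileup of 2.01 and 1.43, the Apoh promoter 4.11 and 2.98, the Apoa2 promoter 2.80 and 4.45, and the Apoe site past the 3′ end 4.14 and 6.53. The pooled lists contain the same livers and are no independent check.

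Among 31 other genes, for further apolipoproteins, lipoprotein assembly, uptake, lipid transfer and lipolysis, the serum amyloid A proteins, Pon1 and the transcription factors Hnf4a and Creb3l3, 204 sites were found within 10 kb. Presence was tested at 50 and called at 1 (beside 0.979% of all tested regions towards STAT5_High and 0.134% towards STAT5_Low), an intronic site of the cholesterol exporter gene Abca1 (chromosome 4, 53131474 to 53131895), open in 8 of 8 STAT5_High and 0 of 10 STAT5_Low livers (adjusted p = 0.00744). Height was tested at 39 sites, of which 4 were higher and 0 lower in STAT5_High, with a median log2 difference of −0.03, beside 7.35% and 1.23% of all regions. The 3 with the smallest p were near Scarb1, the high-density lipoprotein receptor (chromosome 5, 125753979 to 125754798; 0.83, SE 0.156, limma, adjusted p = 0.000634), in Abca1 (chromosome 4, 53152121 to 53153054; 0.46, SE 0.0989, adjusted p = 0.00234) and in Lipc, encoding hepatic lipase (chromosome 9, 70736335 to 70737323; 1.37, SE 0.340, adjusted p = 0.00926).

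The 4 apolipoprotein promoters open in every liver (Apoa1, Apoc3, Apob and Apoh) were averaged, as log2 height minus the liver's median. The promoters most like that mean over the 18 livers were those of Cxcl1 (Pearson's r = 0.738), BC021614 (0.728) and H2-Q10 (0.722), a description over livers that share the 2 classes and 3 collections.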

How the data were processed

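The submitters' processing notes list Bowtie2, MACS2 and the mouse build mm9. Per the file headers, MACS2 version 2.1.0.20150731 called each liver's peaks without a control, with an extension of 200 bases and a regional background over 10000 bp, and called 1 combined list per class on pooled reads. The authors' pileup, as deposited, is the signal of extended reads at the summit and is not scaled between libraries. The fold enrichment is the authors' ratio of pileup to local background, as deposited. The deposited −log10 q-value is the authors' peak significance, and the −log10 p-value was not used. All peaks lay within NCBIM37 chromosomes.

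Peaks sharing 1 bp or more were merged. Presence was compared with two-sided Fisher's exact tests over the 15631 regions open in 5 to 13 livers. Height, log2 of the normalised pileup minus the liver's median over the 11748 regions open in all 18 livers, was fitted with limma 3.58.1 (R 4.3.3) with a trended prior. Adjustment was Benjamini-Hochberg over all regions fitted, with a threshold of 0.05. Local background, (pileup + 1)/fold − 1 per 1000000 tags, was fitted likewise, a comparison added after the heights had been seen. Nothing says that numbered replicates share a cage or day, and each is 1 mouse. The members, lists and tests were chosen with earlier results of these data known. Named are, per gene, the site nearest the start, the tallest and the one with the largest difference in share of livers. Any site past a threshold is also named. Other sites of Apoa2, Apoa5, Apoe and Apoh were named after their values were seen. Per-peak values carry no counting interval here, and reads are not independent molecules. Alternatives comprised scaling (no subtraction, trimmed mean of M values, TMM), a pseudocount of 0.5, filters, fold enrichment, collection and replicate terms, and leaving out each liver. Tests were checked on simulated data in which livers and regions varied independently, without collection effects or a liver like STAT5_High replicate 4. That check does not cover these features of the data. Python 3.11.15, scipy 1.17.1, pysam 0.24.0, samtools 1.23.1 and matplotlib 3.10.9 were used.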

Additional observations from a re-analysis of the deposited data

Results flagged for a closer look

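Of 41 groups of values examined for a liver far from the others of its class, 3 met the criterion (Dixon's ratio at its 95% critical value), and chance alone flags about 1 in 20 groups. STAT5_High replicate 4 had a peak at 17 sites, against 29 to 37 in the other livers of its class. At the Apoh site 36.2 kb upstream of the mRNA start, STAT5_Low replicate 7 had a normalised pileup of 1.89, against 0.569 to 1.25 in the others. At the Apob site 0.951 kb past the start, STAT5_Low replicate 8 had 4.55, against 2.21 to 3.42.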

How the results depend on the processing

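No apolipoprotein site was called by presence under any alternative run, but several of these tests could call few or no sites, as described above and below. Heights called higher in STAT5_High numbered 2, and 0 without subtraction of the liver's median, 0 with a replicate block, 0 with a replicate block and collection, 1 with collection alone, 1 by fold enrichment, 1 with peaks of −log10 q 10 or more, 1 in the fit over regions open in at least 6 and 8 livers (which called 2 lower), and 1 to 2 with a liver left out. The adjusted p at the Apoh promoter was 0.462 without subtraction, 0.103 with the block and 0.749 with block and collection; at the Apob downstream site it was 0.162, 0.0659 and 0.715. Backgrounds called lower numbered 3 with any liver left out, with collection and with the replicate block, and 2 without subtraction. Those called higher were 0 to 1 with a liver left out: the Apob downstream site without STAT5_High replicate 2 or 8 or STAT5_Low replicate 3 (adjusted p = 0.0442, 0.0382 and 0.0374) and the Apoa5 site 9.31 kb upstream without STAT5_Low replicate 6 (0.0441).
Over all regions, heights called higher and lower were 453 and 28 without subtraction, 499 and 70 by fold enrichment, 230 and 7 with block and collection, 1273 and 209 in the wider fit and 415 and 43 at −log10 q 10 or more. Backgrounds were 359 and 117 without subtraction. With a liver left out, heights ranged over 715 to 989 and 83 to 274 (leaving out STAT5_High replicate 1 gave 274 lower calls, and STAT5_High replicate 5 gave 83; STAT5_Low replicates 1, 2 or 3 gave 95, 94 or 84), backgrounds over 789 to 1133 and 296 to 765, and presence calls over 156 to 251 and 22 to 43. Presence calls were 280 and 32 at −log10 q 10 or more, 454 and 40 with equal numbers of top peaks, 47 and 1 without the occupancy filter, and 0 and 0 stratified by collection or with the replicate block (exact McNemar test). With so few pairs, or livers per collection, the smallest possible p of these last tests is large. After adjustment they could call a region only if many regions reached that p, so the 0 calls decide nothing. The numbers did not pair the samples: same-numbered livers correlated at −0.16 to 0.38, and 2 of 8 STAT5_High livers correlated best with their own number. Sites per liver were 19.8 and 24.9 at −log10 q 10 or more, and 15.6 and 17.6 over gene bodies alone. Combined sites lower in STAT5_High were 21 by fold enrichment.
Log2 differences that changed sign, all short of the threshold and the cause not tested, were as follows. By fold enrichment they were 0.34 and 0.032 at the Tomm40l and Fcer1g promoters, 0.28 upstream of Apoe, 0.12 and 0.077 at the Apoa1 promoter and downstream site, 0.034 at Apoc3 and −0.065 at the Apoa5 site 9.31 kb upstream. At the Apob promoter and the Zfp259 promoter they were 0.0049 and 0.0065 with TMM and 0.0011 and 0.0018 with collection. Backgrounds without subtraction were −0.12 and −0.13 at Apoh 29.8 kb upstream and promoter, −0.033 at the Apob promoter and −0.13 at Zfp259. With a liver left out, heights spanned −0.065 to 0.051 at the Apob promoter, −0.12 to 0.0089 at Apoa1 and −0.063 to 0.044 at Zfp259, backgrounds −0.10 to 0.093 and −0.0081 to 0.079 at the Apoh sites and −0.0205 to 0.12 at Zfp259, and the presence difference 10.3 kb upstream of Apoa2 −0.153 to 0.0143.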

Other observations

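The combined lists held 3 STAT5_High and 6 STAT5_Low peaks in the windows that overlapped no peak of a single liver. They were low, for example a normalised pileup of 0.412 and 0.579 in the Apoa4 gene body, apart from a STAT5_Low peak between Apoa1 and Apoc3 at 2.37 with a fold enrichment of 1.59.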
